A study of Mus musculus with 70 samples.

Results

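The genes described here encode the NF-κB subunits and their feedback inhibitors. They are 10 of the 53465 genes in the deposited count table. Nfkb1 (p105/p50), Nfkb2 (p100/p52), Rel (c-Rel) and Relb encode subunits, Nfkbia (IκBα) and Nfkbie (IκBε) classical IκB proteins, Nfkbid (IκBNS), Nfkbiz (IκBζ) and Bcl3 nuclear IκB proteins, and Tnfaip3 the ubiquitin-editing enzyme A20. The genes were chosen by name, from their known roles, with earlier results of these data known. Each symbol matched 1 Ensembl identifier. All 10 passed the filter on low counts, which left 13173 protein-coding genes to be tested.

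In unstimulated cells IκB proteins hold dimers of the subunits in the cytoplasm. Signals from the antigen receptor, from members of the TNF receptor family or from ST2, the receptor of IL-33, activate the IκB kinase complex, the inhibitors are degraded, and the dimers enter the nucleus. NF-κB then induces several of its own genes, including Nfkbia and Tnfaip3, so that these transcripts serve as negative feedback. Nuclear IκB proteins bind p50 or p52 dimers at promoters and raise or lower transcription there. In Tregs c-Rel is needed for development in the thymus and, with p65, for the identity of activated cells.

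Tregs were sorted as live CD45.2+ CD4+ YFP+ cells from 5 male Foxp3tm4(YFP/icre)Ayr mice on the B6.129(Cg) background, aged 16.6 to 18.6 weeks. YFP and Cre are expressed from the Foxp3 locus in all of them, so no group lacks the reporter, and no mouse received a treatment. ST2+ CD44hi and ST2- CD44hi Tregs came from back skin, colon lamina propria, fat of the abdomen (visceral adipose tissue, VAT), lungs, spleen and blood, and ST2- CD44lo CD62L+ Tregs from spleen and lungs. These are 14 groups, and the same 5 mice gave every group. Of 70 libraries, 67 held over 1000000 counts and were kept, which left 4 mice for ST2+ Tregs of blood, 3 for those of colon and 5 in each other group. Up to 220 cells were sorted per library, with as few as 55 in one library.

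The tissues were not dissociated in the same way. Blood and spleen had no enzyme step. Lungs and VAT were digested by an identical collagenase and DNase protocol, colon was incubated with DTT and EDTA at body temperature before its collagenase step, and skin was kept longest in the most concentrated collagenase. Spleen and lungs were in addition enriched for CD4+ cells with magnetic beads. The handling of a tissue and the tissue itself therefore cannot be told apart in these groups. Lungs and VAT shared the enzyme step and blood and spleen the lack of one, but within each of these pairs 1 tissue was enriched with beads and the other was not.

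The kept libraries held 1304560 to 2759926 counts (median 2039002). Foxp3, the factor that defines Tregs, lay between 106 and 412 CPM (counts scaled to a library of 1000000) in all 67 libraries. Il1rl1, which encodes ST2, lay between 226 and 1594 CPM in the ST2+ groups and between 0 and 194 CPM in all others, with its highest ST2- values in skin. Cd8a had counts in 2 of the 67 libraries. The 10 myeloid markers summed to between 1207 and 1274 CPM in the ST2+ libraries of colon, with Csf1r at 75.3 to 197 CPM, and to at most 750 CPM in any other library. Their part in the values of colon was not tested. Red cell genes summed to at most 578 CPM, and the highest sums were in blood. Summed levels ran from 147 to 2136 CPM for B cell markers, from 3.90 to 155 CPM for CD8 and NK markers, from 14.8 to 1150 CPM for epithelial markers and from 27.2 to 1152 CPM for stromal markers.

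All members were detected in every kept library, with between 19 and 5968 counts. In bulk libraries of sorted cells, fewer cells with a transcript and less of it per cell cannot be told apart. Divided by the length of their exons, the median of the 14 group means was highest for Nfkbia at 398 CPM per kilobase, followed by Tnfaip3 at 282 and Nfkbid at 151. Nfkbiz followed at 84.6, Bcl3 at 59.5, Relb at 39.7, Nfkbie at 36.6, Nfkb2 at 36.3, Rel at 33.4 and Nfkb1 at 22.2 CPM per kilobase. On this scale the feedback inhibitors lay above the subunits, except for Nfkbie, which lay below Relb. The length counts all annotated exons of a gene together, 12061 bases for Nfkb1 and 7466 for Rel. The order depends on this choice, and the length of single transcripts was not used. The ratio of the highest to the lowest group mean was largest for Nfkbid, from 14.8 to 389 CPM per kilobase, followed by Rel, from 8.85 to 167. This ratio was smallest for Nfkbia, from 234 to 647 CPM per kilobase. Nfkb2 overlaps exons of Psd on the opposite strand, a gene with a median of 17 counts per library, and the strand setting of the counting is not given in the sources used here.

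**Figure D1:**
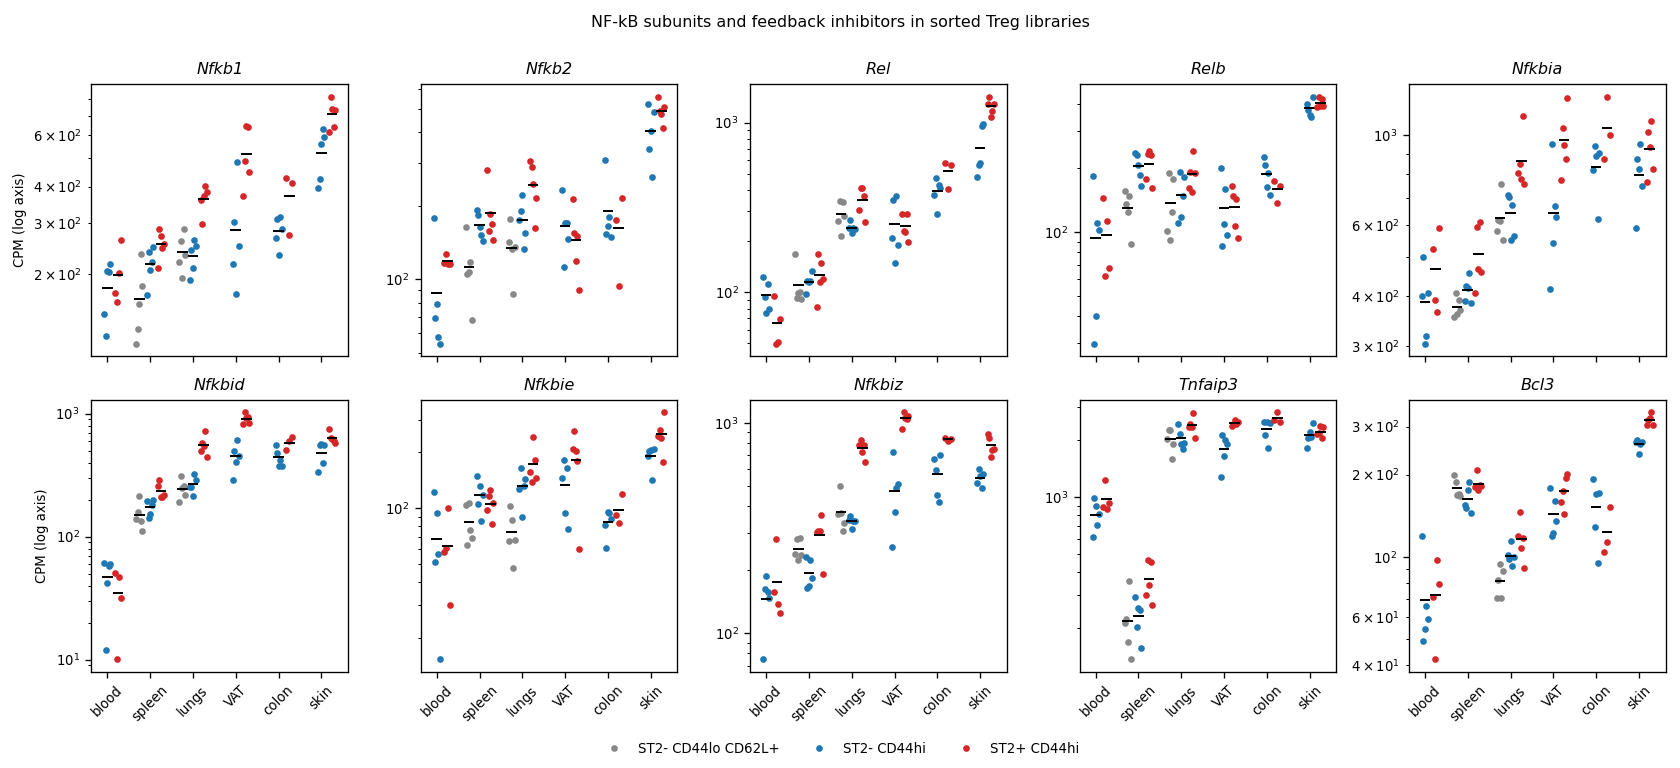
CPM of the 10 members (log axis) in every kept library, by tissue, with colors for the 3 sorted populations and a bar at each group mean. Within each CD44hi population skin has the highest mean of Nfkb2, Rel, Relb and Bcl3, and single libraries of other tissues reach into the skin values for Nfkb2 and Rel. Tnfaip3 separates blood and spleen from the other tissues, and Nfkbid is lowest in blood.

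Sequences before the transcription start were looked up for the members because several of them moved together across tissues. The RefSeq promoter table of GRCm38.p6 held 7 of the 10 members, with 12 start sites. The names without an entry are Nfkb1, Relb and Nfkbiz. In the 250 bases before the start, 8 of the 12 windows and 6 of the 7 members held a match to the κB motif on either strand, where overlapping matches were counted by their first base. The same motif was found in 7.25% of all 32851 windows and in 8.23% of the 27025 genes of the table. Bcl3 was the member whose window held no match, which says only that these letters are not in this window. A match is a description of the sequence and no evidence of binding. The windows of the 5 members below are printed 5′ to 3′ on the strand of the gene, with matches in capitals, because these members carry the differences between tissues described next or, for Nfkbia, are a standard feedback inhibitor. For Nfkbid and Tnfaip3 the start with a match is shown, and the remaining 2 starts of Nfkbid and the remaining start of Tnfaip3 had none. The windows lie at chr19:46304487-46304736 (+) for Nfkb2, chr11:23770970-23771219 (-) for Rel, chr12:55492648-55492897 (-) for Nfkbia, chr7:30422156-30422405 (+) for Nfkbid and chr10:19015411-19015660 (-) for Tnfaip3.
Nfkb2: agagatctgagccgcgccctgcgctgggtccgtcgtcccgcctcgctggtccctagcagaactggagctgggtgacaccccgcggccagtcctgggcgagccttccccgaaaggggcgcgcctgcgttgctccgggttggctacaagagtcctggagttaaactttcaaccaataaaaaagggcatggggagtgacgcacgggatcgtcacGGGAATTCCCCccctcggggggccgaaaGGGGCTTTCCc
Rel: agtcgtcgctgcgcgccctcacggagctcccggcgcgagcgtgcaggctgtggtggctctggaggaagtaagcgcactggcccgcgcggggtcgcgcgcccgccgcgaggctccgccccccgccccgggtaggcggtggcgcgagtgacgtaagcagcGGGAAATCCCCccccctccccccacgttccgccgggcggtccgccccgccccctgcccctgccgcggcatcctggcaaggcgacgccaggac
Nfkbia: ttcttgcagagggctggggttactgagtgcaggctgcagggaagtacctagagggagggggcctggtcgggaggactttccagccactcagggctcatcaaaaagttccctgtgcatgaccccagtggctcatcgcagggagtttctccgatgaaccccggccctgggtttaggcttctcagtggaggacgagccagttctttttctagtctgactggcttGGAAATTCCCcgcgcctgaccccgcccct
Nfkbid: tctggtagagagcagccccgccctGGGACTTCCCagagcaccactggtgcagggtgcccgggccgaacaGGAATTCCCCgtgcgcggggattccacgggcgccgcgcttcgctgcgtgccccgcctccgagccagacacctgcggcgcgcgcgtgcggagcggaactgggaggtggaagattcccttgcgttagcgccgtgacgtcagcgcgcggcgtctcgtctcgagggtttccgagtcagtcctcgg
Tnfaip3: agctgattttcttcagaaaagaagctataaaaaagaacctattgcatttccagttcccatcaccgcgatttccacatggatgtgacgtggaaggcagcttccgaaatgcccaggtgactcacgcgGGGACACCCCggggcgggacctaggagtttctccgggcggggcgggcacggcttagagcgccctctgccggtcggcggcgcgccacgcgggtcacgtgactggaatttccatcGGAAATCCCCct
The match in Nfkbia begins 29 bases before the start. Those in Tnfaip3 begin 125 and 12 bases before the start, and those in Nfkbid 226 and 181 bases before it. In Nfkbie, not shown, a match begins 106 bases before the start. In Rel 2 overlapping matches begin 92 and 91 bases before the start. Nfkb2 has 2 overlapping matches at 39 and 38 bases and a further match 11 bases before the start shown, and its 2 downstream starts had 1 match each.

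Tissues were compared pairwise within ST2+ and within ST2- CD44hi Tregs. A member was called when its fold change was at least 1.5 and the Benjamini-Hochberg adjusted p of edgeR's quasi-likelihood test over all tested genes was at most 0.05. Of 300 member comparisons, 170 were called, and all 10 genes were called in at least 8 of their 30. Over all genes tested in these comparisons, 11.9% were called. Rel was called in 25 pairs, Bcl3 in 21, Nfkbid and Nfkbiz in 19 each and Tnfaip3 in 18, against 8 for Nfkbie. The same 5 mice gave every group, but the fit had no term for the mouse. The p-values therefore refer to the spread of libraries within groups, with libraries of the same mouse treated as independent. Where all libraries of a tissue are said below to lie apart from those of another, the share of all genes with such separation was not counted.

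Among the subunits, Rel differed most between tissues. In ST2+ Tregs of skin it was at 1286, 1425, 1076, 1167 and 1282 CPM in mice 1 to 5. In those of colon it was at 580, 404 and 566 CPM in mice 1, 3 and 4, in those of lungs at 304, 412, 412, 368 and 258 CPM, and in those of VAT at 288, 229, 225, 290 and 196 CPM. Spleen held 82.1, 169, 115, 148 and 119 CPM and blood 94.7, 49.6, 50.8 and 69.2 CPM. The skin libraries lay above every ST2+ library of the other tissues, and those of VAT, lungs and colon lay above those of blood and spleen. The step from colon to skin was 2.41-fold (log2 1.27 ± 0.24 SE, adjusted p = 9.53e-05), and spleen lay 1.92-fold above blood (adjusted p = 0.00691). That last value rests on the 4 kept libraries of blood. With all 70 libraries, among them the left-out ST2+ library of blood from mouse 1 with Rel at 442 CPM of its total, it was log2 0.07 (adjusted p = 0.971). VAT and lungs did not differ past the threshold (log2 0.51, adjusted p = 0.148), nor did lungs and colon (log2 0.56, adjusted p = 0.155).

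In ST2- CD44hi Tregs, skin again held the most Rel, at 478, 561, 580, 957 and 978 CPM in mice 1 to 5. Colon followed at 395 ± 69.2 CPM (mean ± SD, n = 5), then VAT at 253 ± 99.4, lungs at 240 ± 16.4, spleen at 115 ± 12.6 and blood at 96.6 ± 20.4 CPM. Skin lay 1.80-fold above colon (adjusted p = 0.00157) and lungs lay 2.09-fold above spleen (adjusted p = 0.000283). Blood and spleen did not differ past the threshold in this population (log2 0.25 ± 0.21, adjusted p = 0.602). VAT and lungs were also within their spread (log2 0.07 ± 0.20, adjusted p = 0.959).

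Relb, the partner of p52 in the alternative pathway, had its only step past the threshold at skin. It was at 404, 378, 357, 349 and 433 CPM in ST2- CD44hi and at 390, 436, 393, 424 and 391 CPM in ST2+ Tregs of skin, in mice 1 to 5. The highest library of any other tissue was at 240.4 CPM. The tissue next to skin was spleen in both populations, and skin was 1.95-fold higher than spleen in ST2+ Tregs (log2 0.96, adjusted p = 0.00262) and 1.88-fold higher in ST2- CD44hi Tregs (log2 0.91, adjusted p = 0.00434). Among the remaining tissues VAT, colon, lungs and spleen did not differ from their neighbors in the order, with adjusted p from 0.530 to 0.837 in both populations. Blood was lowest, with a wide spread in ST2- CD44hi Tregs (184, 29.6, 39.9, 111 and 102 CPM).

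Nfkb2, which encodes that partner, had the same step and, in ST2- CD44hi Tregs, another from blood to VAT (log2 0.91, adjusted p = 0.00992). Its mean was 489 ± 52.4 CPM in ST2+ and 403 ± 105 CPM in ST2- CD44hi Tregs of skin. In ST2+ Tregs the next tissue was lungs at 243 ± 57.9 CPM (2.01-fold, adjusted p = 0.00166) and in ST2- CD44hi Tregs colon at 191 ± 65.7 CPM (2.11-fold, adjusted p = 0.000848). Over 10 comparisons with another tissue, skin was called higher in 10 for each of Nfkb2, Rel, Relb and Bcl3 and in 9 for Nfkb1. Nfkb1 reached 709 ± 80.7 CPM in ST2+ and 521 ± 105 CPM in ST2- CD44hi Tregs of skin. The comparison it missed was skin against VAT in ST2+ Tregs, where VAT held 371, 489, 648, 640 and 450 CPM (log2 0.45 ± 0.18, adjusted p = 0.0652). Among ST2- CD44hi Tregs the order of Nfkb1 from blood to VAT had no step between neighbors past the threshold. VAT itself was called higher than blood.

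Skin stood apart from the other tissues in many genes. Of all genes, 18% were called between skin and lungs in ST2+ and 20.1% in ST2- CD44hi Tregs, in either direction. Of the members, 5 of 10 and 7 of 10 were called there, all higher in skin. The median log2 difference of the members was 0.75 in ST2+ and 1.01 in ST2- CD44hi Tregs, and that of all genes 0.01 and 0.04. Nfkbia (log2 0.11 and 0.32), Nfkbie (0.54 and 0.54) and Tnfaip3 (-0.11 and 0.06) were not called in either population. Heat shock transcripts summed to between 2284 and 3427 CPM in skin and to at most 1781 CPM in any library of another tissue, and 8 of 9 were called higher in skin than in lungs in each population. Dnajb1, a chaperone partner of HSP70, rose from 170 ± 36.7 CPM in lungs to 581 ± 72.0 CPM in skin in ST2- CD44hi Tregs. The part of these transcripts in the values of the members was not tested, and tissue and digestion cannot be told apart here.

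The classical inhibitor Nfkbia was more even. In ST2- CD44hi Tregs its mean was 386 ± 79.0 CPM in blood, 414 ± 29.3 in spleen, 640 ± 198 in VAT, 640 ± 78.1 in lungs, 797 ± 138 in skin and 835 ± 127 CPM in colon. The only neighbors in this order that differed past the threshold were spleen and VAT (1.54-fold, log2 0.63, adjusted p = 0.00523). In ST2+ Tregs this step lay between spleen at 507 ± 89.4 CPM and lungs at 862 ± 146 CPM (1.70-fold, log2 0.77 ± 0.15, adjusted p = 0.000429). The remaining tissues reached 927 ± 132 CPM in skin, 975 ± 177 in VAT and 1042 ± 190 CPM in colon, with no step past the threshold. Nfkbie, which encodes an inhibitor that prefers c-Rel and p65 dimers, had no step between neighbors past the threshold in either population. Its extremes were blood at 62.4 ± 28.8 CPM and skin at 251 ± 55.0 CPM in ST2+ Tregs. Colon was low for this member, at 84.0 ± 13.96 CPM in ST2- CD44hi Tregs, and skin lay 2.27-fold above it (adjusted p = 0.00257).

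The nuclear inhibitor Nfkbid had the largest range. In blood it was at 60.8, 12.0, 42.4, 58.1 and 60.3 CPM in ST2- CD44hi Tregs of mice 1 to 5 and at 50.3, 10.1, 47.1 and 31.6 CPM in ST2+ Tregs of mice 2 to 5. In spleen it was at 194, 142, 154, 180 and 197 CPM and at 259, 288, 210, 211 and 217 CPM. Every spleen library lay above every blood library. Neither tissue was digested, spleen alone was enriched with beads, and the cause of the difference was not tested. The difference was 6.85-fold in ST2+ (log2 2.78 ± 0.27, adjusted p = 1.46e-10) and 3.69-fold in ST2- CD44hi Tregs (log2 1.88 ± 0.24, adjusted p = 1.30e-07). VAT held the most Nfkbid in ST2+ Tregs, at 824, 1033, 924, 948 and 840 CPM, all above the other ST2+ groups. The step from skin to VAT missed the threshold (log2 0.52 ± 0.22, adjusted p = 0.0757).

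Nfkbiz, which in T cells is induced by IL-1 family signals and by the antigen receptor, followed a similar order in ST2+ Tregs. It was at 157, 279, 137 and 124 CPM in blood of mice 2 to 5, at 301, 306, 306, 363 and 191 CPM in spleen, and at 788, 833, 729, 780 and 652 CPM in lungs. VAT reached 939, 1126, 1052, 1046 and 1083 CPM. The step from spleen to lungs was 2.58-fold (log2 1.37 ± 0.19, adjusted p = 1.31e-07), whereas lungs, skin, colon and VAT did not differ from their neighbors (adjusted p from 0.449 to 0.890). The same step in ST2- CD44hi Tregs was 1.76-fold (adjusted p = 0.00246).

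Bcl3, a nuclear inhibitor that can turn p50 and p52 dimers into activators, had another order. Spleen held 185 ± 12.8 CPM in ST2+ and 163 ± 18.4 CPM in ST2- CD44hi Tregs, and lungs only 116 ± 19.8 and 101 ± 7.92 CPM. The decrease from spleen to lungs was 1.60-fold (adjusted p = 0.00578) and 1.61-fold (adjusted p = 0.00551), and the libraries of both tissues did not overlap in either population. It was the only member called lower in lungs than in spleen. Skin was highest, at 305, 316, 322, 340 and 305 CPM in ST2+ and 265, 267, 237, 260 and 264 CPM in ST2- CD44hi Tregs.

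Tnfaip3 divided the tissues in a different way. In ST2- CD44hi Tregs of spleen it was at 294, 202, 257, 250 and 157 CPM in mice 1 to 5, and in those of blood at 611, 988, 894, 709 and 811 CPM. Lungs held 2442, 2169, 1923, 1805 and 1941 CPM. Every blood library lay above every spleen library, and every library of lungs, VAT, colon and skin lay above every blood library. Blood was 3.46-fold above spleen (log2 1.79 ± 0.16, adjusted p = 1.17e-11) and lungs 8.85-fold above spleen (log2 3.15 ± 0.17, adjusted p = 6.28e-22). The 4 digested tissues did not differ from their neighbors in either population, with means from 1793 to 2300 CPM in ST2- CD44hi and from 2231 to 2633 CPM in ST2+ Tregs and adjusted p from 0.624 to 0.966. Tnfaip3 was the only member called higher in blood than in spleen.

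**Figure D2:**
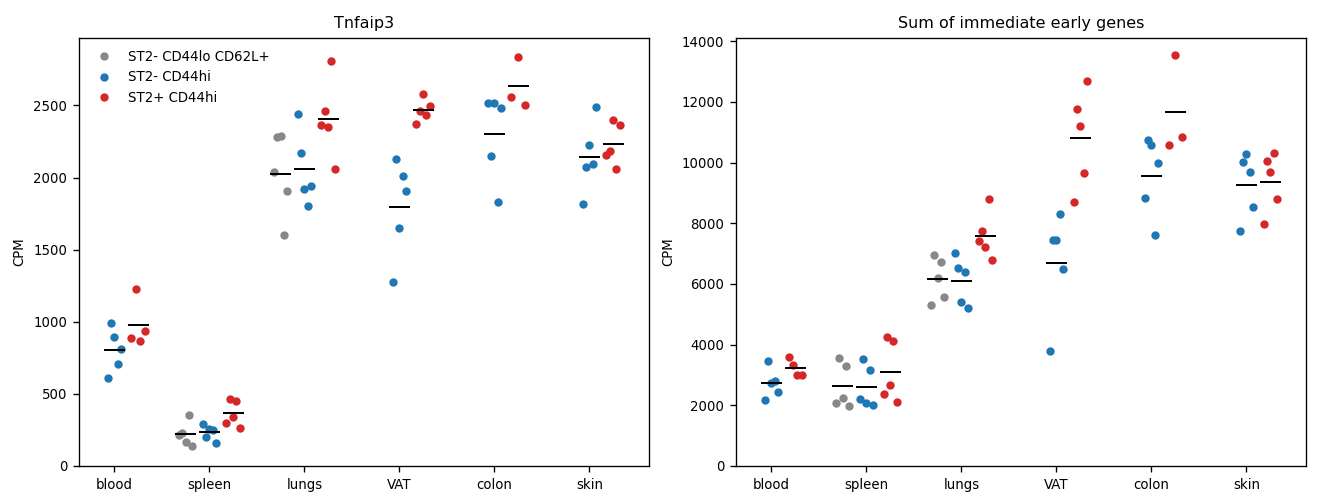
CPM of Tnfaip3 (left) and the sum over 14 immediate early genes (right) in every kept library by tissue and population, with a bar at each group mean. Tnfaip3 lies below 500 CPM in spleen, between 611 and 1229 CPM in blood and from 1275 CPM upward in the digested tissues, and the immediate early sum is lowest in blood and spleen.

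To set digested against undigested tissues, the mean of lungs, VAT, colon and skin was compared with the mean of blood and spleen. In ST2+ Tregs 8 of 10 members were called, all higher in the digested tissues, against 16.5% of all genes in either direction and 9.33% in that direction. Of the members 7 of 10 were called higher in ST2- CD44hi Tregs, against 17.2% and 10%. Tnfaip3 was 4.08-fold higher in ST2+ (log2 2.03 ± 0.11, adjusted p = 1.46e-21) and 4.78-fold higher in ST2- CD44hi Tregs (log2 2.26 ± 0.11, adjusted p = 3.57e-25). Nfkbid was 7.28-fold and 4.41-fold higher, Rel 5.32-fold and 3.42-fold, and Nfkbiz 3.75-fold and 2.82-fold. Nfkbia was higher by log2 0.96 and 0.85, Nfkb1 by 1.07 and 0.67, and Nfkb2 by 0.63 and 0.84. Relb and Bcl3 were called in neither population, and Nfkbie in ST2+ Tregs alone (log2 1.04 ± 0.20). These contrasts average a few tissues, which are not replicates of a digestion step, and with the mouse as a block Nfkb2 in ST2+ Tregs was under the minimum fold (log2 0.56 ± 0.13, adjusted p = 0.000726).

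Without skin and colon, when lungs and VAT were set against blood and spleen, 12 of 20 member comparisons over both populations were called, against 15 with all tissues. The share of all genes called in this narrower contrast is not given here, so the count stands without a background. Nfkb2 was then lost in both populations and Nfkb1 in ST2- CD44hi Tregs. Transcripts that respond within minutes to stress and stimulation moved with this contrast. All 14 immediate early genes were called higher in the digested tissues in both populations, with a median log2 difference of 1.82 in ST2+ and 1.70 in ST2- CD44hi Tregs. Their sum ran from 1989 to 4245 CPM in blood and spleen libraries and from 3778 to 13543 CPM in the others. Fosl2, Atf3 and Nr4a1, which encode inducible transcription factors, had the smallest adjusted p of the 14 in both populations. Of the 9 heat shock genes 5 were called higher in each population. The part of these transcripts in the differences of the members was not tested, and digestion and tissue cannot be told apart in this contrast.

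Pairs of tissues that shared the enzyme step, or the lack of one, were also compared. Between lungs, which were enriched with beads, and VAT, which was not, both digested by the same protocol, 1 of 20 member comparisons was called, against 2.62% of all genes tested in these comparisons, and 9 of 20 had an unadjusted p under 0.05. The called value was Bcl3 in ST2+ Tregs, which was higher in VAT (log2 0.59 ± 0.17, adjusted p = 0.0288), at the minimum fold. Leaving out mouse 2, 3, 4 or 5 gave 0 calls and leaving out mouse 1 gave 2, with 8 to 10 of the 20 at an unadjusted p under 0.05, and DESeq2 called 4 and voom with quality weights 3. With the mouse as a block 3 were called, namely Bcl3, Nfkb2 at log2 -0.76 ± 0.19 (adjusted p = 0.0103) and Nfkbid at log2 0.72 ± 0.22 (adjusted p = 0.0421), both in ST2+ Tregs. Tnfaip3 was at 2409 ± 268 CPM in lungs and 2469 ± 76.8 CPM in VAT of ST2+ Tregs, a log2 difference of 0.04 ± 0.16.

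Between blood and spleen, neither of which was digested and of which spleen alone was enriched with beads, 11 of 20 member comparisons were called, against 3.98% of all genes tested in these comparisons. Nfkbid, Relb and Bcl3 were called higher in spleen and Tnfaip3 higher in blood in both populations. Rel and Nfkbiz were called higher in spleen in ST2+ Tregs and Nfkb2 in ST2- CD44hi Tregs. Relb was 2.15-fold and 2.18-fold higher (adjusted p = 0.0101 and 0.00427), and Bcl3 2.55-fold and 2.33-fold higher (adjusted p = 9.02e-07 and 1.06e-06). Leaving out 1 mouse at a time gave 7 to 11 calls. It ended the calls of Rel without mouse 3 or 4, of Nfkbiz without mouse 2, 4 or 5, of Nfkb2 without mouse 2, 3, 4 or 5, of Relb in ST2+ Tregs without mouse 3, 4 or 5 and of Relb in ST2- CD44hi Tregs without mouse 2 or 3. Nfkbid, Tnfaip3 and Bcl3 were called in both populations in all 18 alternative analyses, with adjusted p of at most 0.00335. Relb in ST2+ Tregs was also lost when sorted cell numbers entered the fit, and Rel also in voom with quality weights (log2 1.03, adjusted p = 0.117) and with all 70 libraries (log2 0.07, adjusted p = 0.971).

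Immediate early genes were not uniform between these 2 tissues either. Of 14, 3 were called higher and 1 lower in spleen in ST2+ Tregs, and 2 higher and 1 lower in ST2- CD44hi Tregs. In ST2- CD44hi Tregs Egr1 was higher in spleen (106 ± 36.5 against 8.004 ± 8.11 CPM) and so was Nr4a1, a reporter of antigen receptor signals (102 ± 68.5 against 20.3 ± 18.1 CPM). Klf6 was lower in spleen (311 ± 67.4 against 730 ± 109 CPM). Their part in the differences of Nfkbid and Tnfaip3 between blood and spleen was not tested.

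ST2- CD44lo CD62L+ Tregs, the naive-like population, were sorted from spleen and lungs. Between these tissues 4 of 10 members were called, against 3.2% of all genes. Tnfaip3 was at 212, 225, 169, 356 and 137 CPM in spleen and 2042, 2280, 2285, 1602 and 1909 CPM in lungs, which is 9.22-fold (log2 3.20 ± 0.17, adjusted p = 2.93e-22). Rel rose 2.61-fold, from 110 ± 32.8 to 288 ± 55.8 CPM (adjusted p = 2.22e-06), and Nfkbia 1.66-fold, from 376 ± 21.7 to 624 ± 80.4 CPM (adjusted p = 0.00132, but 0.111 with all 70 libraries). Bcl3 was 2.20-fold lower in lungs, at 81.2 ± 10.6 against 178 ± 14.3 CPM (adjusted p = 1.80e-06). The libraries of the 2 tissues did not overlap for any of these 4 members, and the share of all genes without overlap was not counted. Of the immediate early genes 9 of 14 were called higher in lungs, among them Dusp1 (1045 ± 93.7 against 294 ± 169 CPM). The 9 heat shock genes had a median log2 difference of -0.06. The part of the immediate early genes in the values of the members was not tested.

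**Figure D3:**
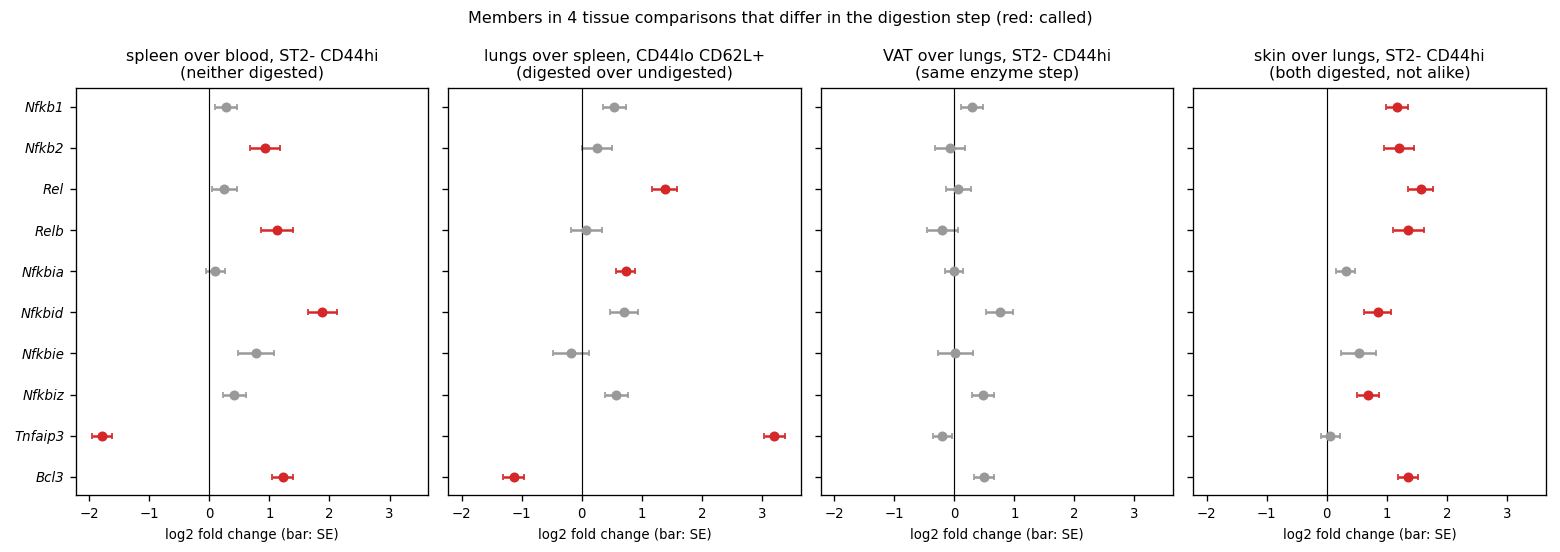
Log2 fold changes of the members with SE bars in 4 tissue comparisons, with called members in red. Tnfaip3 is at 3.20 for lungs over spleen in CD44lo CD62L+ Tregs, and in ST2- CD44hi Tregs at -1.79 for spleen over blood, -0.20 for VAT over lungs and 0.06 for skin over lungs.

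ST2+ and ST2- CD44hi Tregs of the same tissue share all handling up to the sort. Of 60 member comparisons within a tissue, 7 were called, all higher in ST2+ Tregs, against 1.46% of all genes tested in these comparisons. They were Nfkbiz and Nfkbid in lungs, Nfkbiz, Nfkbid, Nfkb1 and Nfkbia in VAT, and Tnfaip3 in spleen. The shares of all genes called were 0.789% in lungs, 3.2% in VAT and 0.357% in spleen. In blood 4.13% of all genes were called, in colon 0.0683% and in skin 0.22%, and no member by edgeR in these 3 tissues, where 5 of the 30 member comparisons had an unadjusted p under 0.05. Over the 60 comparisons DESeq2 called 9 and voom with quality weights 10, and leaving out mouse 3 left 4 calls.

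Nfkbiz gave the clearest difference. In lungs it was at 345, 360, 314, 341 and 342 CPM in ST2- CD44hi and at 788, 833, 729, 780 and 652 CPM in ST2+ Tregs of mice 1 to 5. In VAT it was at 257, 730, 378, 491 and 514 CPM against 939, 1126, 1052, 1046 and 1083 CPM. The populations did not overlap in either tissue, and the share of all genes without overlap was not counted. The fold changes were 2.22 in each (log2 1.15 ± 0.18 and 1.15 ± 0.18, adjusted p = 7.69e-05 and 2.18e-05). Both calls were made in all 18 alternative analyses. In spleen (log2 0.60 ± 0.18), colon (log2 0.55 ± 0.21) and skin (log2 0.52 ± 0.18) the difference had the same sign and was not called. In colon and skin the populations did not overlap either. Groups without overlap and without a call were also found for other members, for example Nfkb1 and Nfkbia in lungs, Tnfaip3 in VAT, Nfkbid in spleen and skin and Bcl3 in skin. Outside blood Nfkbiz was higher in the ST2+ library of the same mouse in 23 of 23 pairs, and in blood in 1 of 4.

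Nfkbid was at 253, 251, 212, 323 and 291 CPM in ST2- CD44hi and at 497, 578, 547, 727 and 441 CPM in ST2+ Tregs of lungs. In VAT it was at 292, 496, 405, 606 and 449 CPM against 824, 1033, 924, 948 and 840 CPM. The differences were 2.10-fold (log2 1.07 ± 0.23, adjusted p = 0.00478) and 2.03-fold (log2 1.02 ± 0.22, adjusted p = 0.00240), with no overlap. As for Nfkbiz, the share of all genes without overlap was not counted. The call in lungs was lost without mouse 4 (adjusted p = 0.0894), and that in VAT when sorted cell numbers entered the fit (adjusted p = 0.0909). All ST2+ libraries of VAT held 220 sorted cells, and the ST2- CD44hi libraries 93 to 220.

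Nfkb1, the gene of p50, was at 217, 302, 171, 484 and 250 CPM in ST2- CD44hi and at 371, 489, 648, 640 and 450 CPM in ST2+ Tregs of VAT, with overlapping groups. The difference was 1.83-fold (log2 0.87 ± 0.19, adjusted p = 0.00182) and was not called without mouse 3 (adjusted p = 0.0961). In lungs it was 232 ± 29.6 against 363 ± 40.2 CPM, a log2 difference of 0.65 that was not called (adjusted p = 0.0810) but was with the mouse as a block (0.66 ± 0.16, adjusted p = 0.0177). Outside blood Nfkb1 was higher in the ST2+ library of the same mouse in 23 of 23 pairs, and in blood in 2 of 4. Nfkbia was higher in 23 of 23 pairs outside blood and in 4 of 4 in blood. Of the 23 pairs outside blood, Nfkbid was higher in 22, Tnfaip3 in 20 and Rel in 19. Nfkb2, Nfkbie and Bcl3 were higher in 16 each and Relb in 12. These pairs come from 5 mice, and the share of all genes with such agreement was not counted. Nfkbia was called in VAT, at 640 ± 198 against 975 ± 177 CPM (1.52-fold, log2 0.61 ± 0.15, adjusted p = 0.0128). That fold is close to the minimum, and 12 of 18 alternatives made the call, which was lost without mouse 1, 3 or 5.

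Tnfaip3 was called in spleen, at 294, 202, 257, 250 and 157 CPM in ST2- CD44hi and 300, 462, 341, 451 and 266 CPM in ST2+ Tregs (1.57-fold, log2 0.65 ± 0.16, adjusted p = 0.0482). The groups overlapped, and the call was made in 9 of 18 alternatives and lost without mouse 2, 3, 4 or 5, with adjusted p up to 0.755. Rel in skin was not called (1247 ± 132 against 711 ± 238 CPM, log2 0.81 ± 0.20, adjusted p = 0.0606), but was with the mouse as a block (log2 0.81 ± 0.18, adjusted p = 0.0256). Its groups did not overlap, and the share of all genes without overlap was not counted. Immediate early genes also differed between the populations of VAT, where 5 of 14 were called higher in ST2+ Tregs, and of lungs, where 2 were. Atf3 rose from 74.8 ± 72.1 to 558 ± 177 CPM and Zfp36 from 365 ± 93.3 to 872 ± 147 CPM in VAT. Their part in the differences of the members was not tested. The library of ST2- CD44hi Tregs of VAT from mouse 1 had the lowest immediate early sum of the digested tissues, 3778 CPM, and without it 6 of the 60 comparisons were called, with Nfkbia lost.

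**Figure D4:**
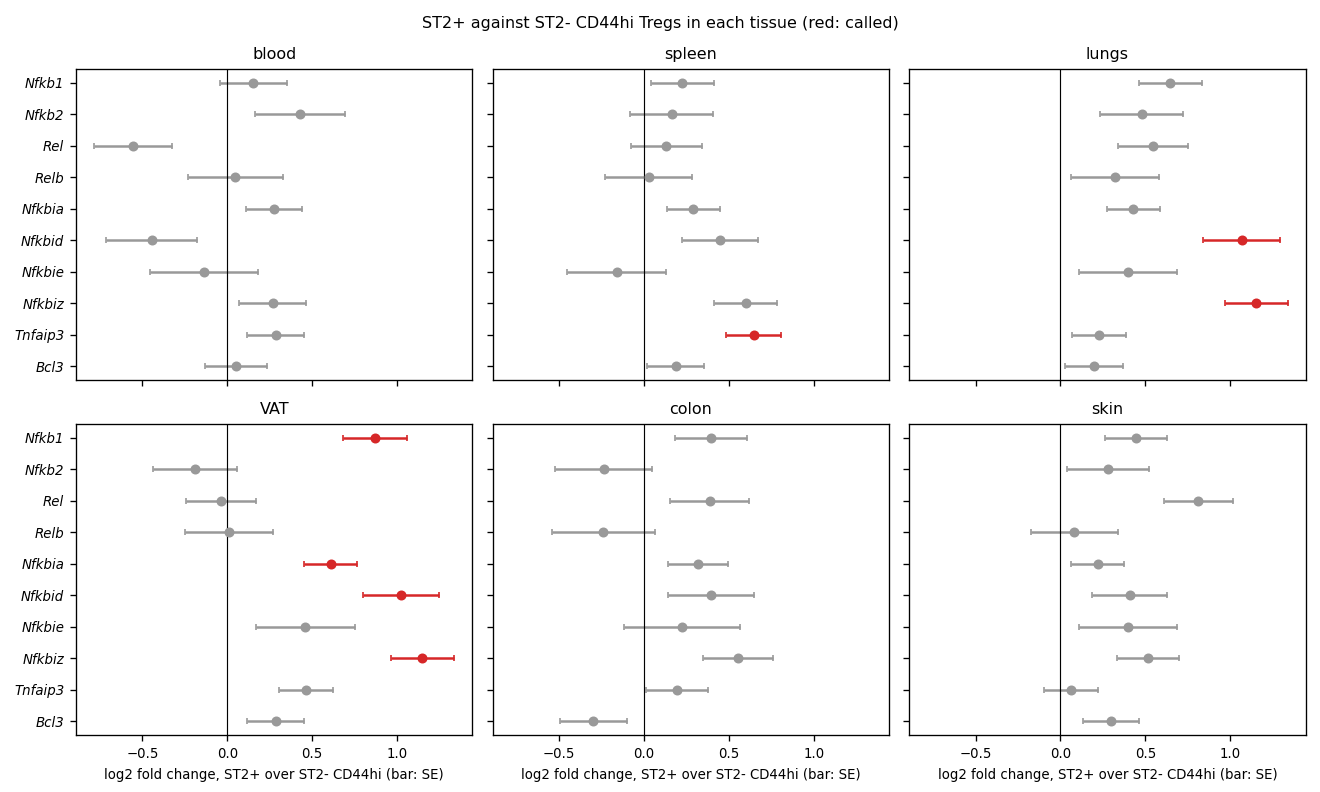
Log2 fold change of each member in ST2+ over ST2- CD44hi Tregs with its SE, by tissue, with called members in red. The 7 calls lie in spleen (1), lungs (2) and VAT (4), and all are above 0.

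**Figure D5:**
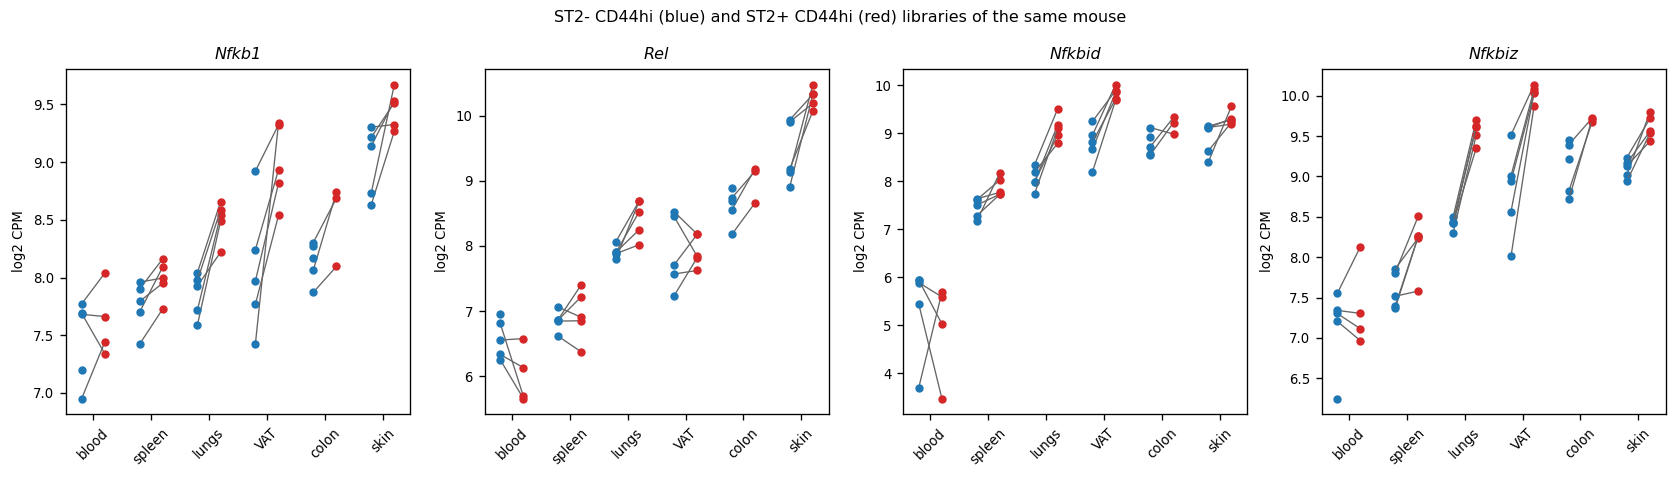
Log2 CPM of Nfkb1, Rel, Nfkbid and Nfkbiz in ST2- CD44hi (blue) and ST2+ CD44hi (red) libraries, with lines that join libraries of the same mouse and tissue. Lines for Nfkbiz and Nfkb1 go up in all 23 pairs outside blood, and those for Rel and Nfkbid in blood go up in 1 of 4.

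Whether the effect of ST2 differed between tissues was tested with the interaction of tissue and ST2 over the 6 tissues. No member passed in edgeR (3 of 10 had an unadjusted p under 0.05), against 1.4% of all genes, but Rel (adjusted p = 0.0523) and Nfkbid (adjusted p = 0.0547) were close. With the mouse as a block both passed (adjusted p = 0.0179 and 0.0386), and both passed in DESeq2, whereas neither did in voom with quality weights. For Nfkbiz the interaction over the 6 tissues did not pass (adjusted p = 0.148). When each tissue was set against the mean of the other 5, only blood gave calls, for Rel and Nfkbid, against 1.13% of all genes. Rel in blood was at 123, 93.2, 75.5, 112 and 79.8 CPM in ST2- CD44hi Tregs of mice 1 to 5 and at 94.7, 49.6, 50.8 and 69.2 CPM in ST2+ Tregs of mice 2 to 5. Its effect of ST2 was lower in blood than elsewhere by log2 0.92 ± 0.25 (adjusted p = 0.0427), and that of Nfkbid by 1.11 ± 0.29 (adjusted p = 0.0353). Within blood itself neither was called. The 2 calls were made in 10 and 12 of 18 alternatives. Both were lost in voom with quality weights and without mouse 1, 3, 4 or 5, and that of Nfkbid also when sorted cell numbers entered the fit. The ST2+ library of blood from mouse 1, which was left out at 488666 counts and 66 sorted cells, held Rel at 442 CPM of its total, and with all 70 libraries in the fit the value for Rel was -0.03 and was not called.

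Against CD44lo CD62L+ Tregs of the same tissue, ST2- CD44hi Tregs had no member called by edgeR in 20 comparisons, against 5.27% of all genes tested there, and 5 had an unadjusted p under 0.05. DESeq2 also called 0 and voom with quality weights 2. Relb in spleen was the only member whose groups did not overlap, and the share of all genes without overlap was not counted. It was at 130 ± 26.8 CPM in CD44lo CD62L+ and 204 ± 30.3 CPM in ST2- CD44hi Tregs (log2 0.65 ± 0.26, adjusted p = 0.150). ST2+ Tregs differed more from the same CD44lo CD62L+ libraries, with 7 of 20 called, all higher, against 9.61% of all genes. In lungs these were Nfkb1, Nfkb2, Nfkbie, Nfkbiz and Nfkbid, and in spleen Tnfaip3 and Nfkb1. Nfkbie was at 66.8, 103, 86.0, 47.4 and 67.5 CPM in CD44lo CD62L+ and 157, 138, 241, 183 and 146 CPM in ST2+ Tregs of lungs, a 2.33-fold difference (log2 1.22 ± 0.30, adjusted p = 0.00218). Nfkb1 was lost in spleen without mouse 1, 2, 3 or 5 and in lungs without mouse 1, 3 or 5, and Nfkb2 in lungs without mouse 3. With the mouse as a block Nfkb2 in spleen was called as well (log2 0.73 ± 0.19, adjusted p = 0.00803). Both comparisons use the same control libraries.

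Another 45 genes of the pathway were counted beside the members, and all were tested. They are 10 kinases, 21 adaptors and ubiquitin ligases, and 14 genes that are the remaining subunit Rela, further IκB proteins and other negative regulators. Between digested and undigested tissues 8 were called higher and 4 lower in ST2+ Tregs, where 9.33% of all genes were called higher and 7.2% lower. In ST2- CD44hi Tregs 10 were called higher and 4 lower, against 10% and 7.23% of all genes. Map3k8, the kinase Tpl2 that p105 holds inactive, rose (log2 1.92 ± 0.21 and 0.88 ± 0.19), as did the adaptor Malt1 of the antigen receptor pathway (1.41 ± 0.17 and 1.44 ± 0.16) and Zc3h12a, the RNase regnase-1 (1.79 ± 0.28 and 1.65 ± 0.27). Prkcq, the kinase PKCθ that links the antigen receptor to this pathway, fell by 0.91 ± 0.10 and 0.87 ± 0.09 on the log2 scale. Between skin and lungs in ST2- CD44hi Tregs 9 of the 45 were called higher and 11 lower in skin, among them the NF-κB-inducing kinase Map3k14 (137 ± 20.9 against 46.3 ± 19.4 CPM) and, lower, Ikbkb (286 ± 60.0 against 504 ± 68.2 CPM), which encodes a catalytic IκB kinase. Of all genes 10.7% were called higher and 9.44% lower in this comparison.

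Between ST2+ and ST2- CD44hi Tregs 1 of these 45 genes was called in lungs, against 0.789% of all genes, and 3 were called higher and 1 lower in VAT, against 1.28% and 1.92%. Map3k8 was called in both, at 68.5 ± 23.6 against 160 ± 18.0 CPM in lungs and 91.4 ± 32.2 against 199 ± 43.2 CPM in VAT. In VAT Birc3, a ubiquitin ligase that NF-κB induces, rose from 267 ± 47.3 to 429 ± 62.1 CPM, and Traf5, an adaptor of TNF receptors, fell from 89.2 ± 27.6 to 33.0 ± 20.5 CPM. Of 20 transcripts that NF-κB is known to induce, 1 was called higher in lungs, 2 higher and 2 lower in VAT, and 1 higher and 1 lower in blood, where 2.37% of all genes were called higher and 1.76% lower. Gadd45b, a stress sensor, rose in lungs and VAT (131.8 ± 39.9 to 460 ± 96.1 CPM in lungs). Il2ra, the α chain of the IL-2 receptor, rose in VAT (260 ± 65.2 to 807 ± 279 CPM). The 2 called lower in VAT and the 1 called lower in blood are not named here. Between skin and lungs 9 of these 20 were called higher in skin in ST2+ and 11 in ST2- CD44hi Tregs, against 8.65% and 10.7% of all genes. Tnfrsf9, which encodes 4-1BB, rose from 142 ± 94.8 CPM in lungs to 1056 ± 215 CPM in skin in ST2- CD44hi Tregs. Between blood and spleen 7 and 6 of the 20 were called higher in spleen, against 2% and 1.68% of all genes. Tnfrsf9 rose from 82.0 ± 28.4 CPM in blood to 418 ± 40.1 CPM in spleen in ST2- CD44hi Tregs. Between lungs and spleen 1 was called higher and 1 lower in lungs in ST2+ Tregs, against 3.36% and 1.53% of all genes. In ST2- CD44hi Tregs 1 was called higher and 3 lower, against 3.35% and 0.736%. In digested over undigested tissues 11 were called higher and 3 lower in ST2+ Tregs, against 9.33% and 7.2%. In ST2- CD44hi Tregs 10 were called higher and 3 lower there, against 10% and 7.23%.

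The genes whose log2 CPM followed a member most closely over the 67 libraries were also looked up. For Tnfaip3 they were Rgs2 (r = 0.948) and Ifngr1 (0.935), for Nfkbia Arf4 (0.918) and Zfp36 (0.904), and for Rel Kdm6b (0.910) and Traf1 (0.905). For Nfkbid they were Nr4a1 (0.906) and Gadd45b (0.882), for Nfkbiz Zfp36 (0.901) and Fosb (0.883), and for Nfkb1 Itgav (0.863) and Kdm2b (0.857). Tnfrsf1b, the receptor TNFR2, was the closest gene for both Nfkb2 (0.852) and Relb (0.811), followed by Orai1 (0.815) and Tank (0.796). Bcl3 was closest to Tnf (0.808) and Klf10 (0.781), and Nfkbie to Wsb1 (0.771) and Tfip11 (0.761). Among the members themselves the highest values were those of Nfkbia with Nfkbiz (0.859), Nfkbid with Nfkbiz (0.847) and Nfkb2 with Relb (0.813). These are correlations across libraries that share tissue, handling and mouse, and are given as descriptions.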

How the data were processed

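The authors counted reads per gene with HTSeq 0.4.1 after alignment to GRCm38 with STAR, and deposited whole-number counts without normalization. Libraries were made by full-length amplification without molecular identifiers. From these counts, libraries with over 1000000 counts were kept (1304560 to 2759926 counts), and a protein-coding gene was tested if it reached 1 CPM in 10% of them or more, with TMM factors and 14 group terms in edgeR 4.0.16 (quasi-likelihood test, R 4.3.3) and Benjamini-Hochberg adjustment. A call needs a fold of at least 1.5 and an adjusted p of at most 0.05. SE is the absolute log2 fold change divided by the square root of F. CPM use the TMM-scaled library size. Promoters are from RefSeq, GRCm38.p6.

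The study's methods used limma voom with quality weights, which was run as an alternative (limma 3.58.1), beside DESeq2 1.42.0, other scalings and filters and fewer libraries. The fits were tested on simulated data. The same numbers mark the same mouse in every group. Deviations of ST2+ and ST2- CD44hi libraries from their group means correlated on average at 0.117 within a mouse (27 pairs, 14 above 0.1) and -0.0278 between mice (108 pairs, 6441 genes). No 2 libraries were identical. Each member, and from the other lists the genes with the smallest adjusted p in a comparison, were named. The members and lists were chosen with earlier results of these data known.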

Additional observations from a re-analysis of the deposited data

Results flagged for a closer look

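In 9 of 130 groups of 4 or 5 libraries, 1 library lay far from the others for a member, where chance gives about 1 in 20. Nfkb2 was at 306 CPM in ST2- CD44hi Tregs of colon from mouse 1 (149 to 179 in the others) and at 127 CPM in ST2+ Tregs of blood from mouse 3 (115 to 117). Rel was at 169 CPM in CD44lo CD62L+ Tregs of spleen from mouse 1 (91.6 to 99.8). Nfkbid was at 12.0 CPM (42.4 to 60.8) in blood of mouse 2 and Nfkbiz at 75.1 CPM (147 to 187) in blood of mouse 1, both in ST2- CD44hi Tregs. Nfkbie was at 141 CPM in ST2- CD44hi Tregs of skin from mouse 4 (192 to 208) and at 60.2 CPM in ST2+ Tregs of VAT from mouse 5 (179 to 259). Bcl3 was at 237 CPM in ST2- CD44hi Tregs of skin from mouse 3 (260 to 267) and at 208 CPM in ST2+ Tregs of spleen from mouse 2 (176 to 182).

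The effect of ST2 in blood differed from the mean of the other 5 tissues for Rel (log2 -0.92) and Nfkbid (log2 -1.11) by edgeR's test of that difference. Voom with quality weights called neither (adjusted p = 0.417 and 0.560). With sorted cell numbers in the edgeR fit Nfkbid was not called (adjusted p = 0.0851). Relb was lower in the ST2+ library of every mouse in colon (mean log2 difference -0.28, 3 mice) and higher in every mouse in lungs (0.34, 5 mice), and the difference between these tissues was not tested. In the ST2+ library of blood from mouse 1, left out of all comparisons, Rel was at 442 CPM of its total, against 49.6 to 94.7 CPM in the 4 kept libraries of that group.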

How the results depend on the processing

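For single members, only values called in the main fit were followed under the alternatives, and of the tissue pairs only blood against spleen. Over these values and settings the call was kept 752 times and lost 65 times, and no direction was reversed. Values that were not called in the main fit and gained a call are outside this count. The counts of calls depended most on the setting where few were made. Between lungs and VAT (1 call) DESeq2 gave 4, voom with quality weights 3, median-of-ratios factors 2, library sizes alone 3, no filter on low counts 0, all 70 libraries 0, CD44hi libraries only 0 and sorted cells as a covariate 4, and the fits without colon and without skin and colon, both added after seeing the data, 0 each. Without 1 mouse it gave 0 to 2. For the interaction of tissue and ST2 (0 calls) DESeq2, median-of-ratios factors, library sizes alone and the filter at 50% of libraries gave 2 each, no filter, all 70 libraries and sorted cells 1 each, and leaving out 1 mouse 0 to 1. For ST2- CD44hi against CD44lo CD62L+ Tregs (0 calls) voom gave 2 and leaving out 1 mouse 0 to 1. Leaving out 1 mouse gave 4 to 7 calls for ST2 (7), 153 to 172 for the tissue pairs (170), 7 to 11 between blood and spleen (11), 15 to 18 for digestion (15) and 4 to 5 for CD44lo CD62L+ Tregs (4). The cause of these changes was not tested. With the mouse as a replicate block, the paired fit gave 3 calls between lungs and VAT and 2 for the interaction, and over the tissue pairs it added Nfkbie in 2, Rel in 1 and Relb in 1 to those given in the report, and it changed no other call. Library sizes alone moved the median of all genes by over 0.1 in 9 of 49 contrasts, at most by -0.22 (ST2+ skin against spleen), and 0 of 205 called values changed sign. Depth limits Nfkbid in blood and Nfkbie most, with as few as 19 and 26 counts.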
